A study of Mus musculus with 10 samples.

Results

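Xenobiotic metabolism enzymes were examined in dissected main olfactory epithelium (MOE), the odour-sensing lining of the nose, as 113 of the 35556 probe sets on the array. The members were taken by gene name, under a rule set with earlier results of these data known. They are the probe sets with a single gene symbol in the cytochrome P450 families Cyp1 to Cyp4 (68 probe sets, without Cyp4x1), the flavin-containing monooxygenases (Fmo, 5), the UDP-glucuronosyltransferases (Ugt2, 8), the glutathione S-transferases of the alpha, mu, pi and theta classes (Gst, 16) and the sulfotransferases (Sult, 16). They stand for 112 of the 19938 genes with a probe set of their own, and Gstm3 alone had 2 probe sets. Among them are Cyp2d37-ps and Cyp4f41-ps, whose symbols mark pseudogenes. The Ugt1 genes had no probe set of their own and are described through a shared one.

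These enzymes clear foreign chemicals in a sequence of steps. P450s and Fmo enzymes oxidise a molecule, and the transferases then attach glucuronic acid, glutathione or sulfate, which makes the product easier to excrete. The nose is exposed to inhaled chemicals, and its epithelium is known as a rich site of such enzymes outside the liver. In the MOE, many of them are made by supporting cells and by the Bowman's glands that secrete mucus, where they are thought to act on toxicants and also on odorants themselves.

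The groups were 4 arrays from H2be-GF mice and 6 from wild-type (WT) mice, all 5 weeks of age, on Affymetrix Mouse Gene 1.0 ST arrays. H2be-GF mice carry a transgene in which the promoter of olfactory marker protein (Omp) drives a FLAG-tagged form of H2BE, a variant of histone H2B. The line comes from a single founder and leaves a band of mature neurons in zone 2 without the transgene product, and the Omp promoter acts in mature neurons, not in supporting cells. The RNA of an array was a pool over animals, and the H2be-GF pools held more animals than the WT pools. WT mice lack the transgene, and the labels give neither strain nor sex for any array. Per the paper, olfactory neurons of mice without the transgene also express H2BE, at levels that vary between neurons. The comparison asks whether the enzymes of this tissue differ in level when the transgene raises H2BE in most of its mature neurons. In whole tissue, fewer cells of a type and less RNA per cell cannot be told apart.

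Array medians lay between 7.74 and 7.91 on the log2 scale of the deposited values. The arrays fell into 2 sets by Xist, a transcript of the inactive X chromosome in females, which was at 11.69 or above on H2be-GF 1 and 2 and WT 1 to 3 and at 4.61 or below on H2be-GF 3 and 4 and WT 4 to 6. The series text gives the samples as an equal mixture of males and females, without saying whether within or between arrays. With Xist either high or near the lower limit on each array, the values go against an equal mixture within each pool. The labels give no sex per array and do not say whether the sets differ in anything else. Markers of mature olfactory neurons, Bowman's glands and supporting cells were present on all arrays, with none at 0.

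Of the 112 genes, 93 had a start site in the RefSeq promoter table (assembly GRCm38.p6), with 110 windows of 250 bases before and 50 bases after the start. Their sequences are given because the rule did not use them. The motif TATAAA, the TATA box that places the start of transcription, was searched on the strand of the gene, beginning 40 to 20 bases before the start. It stood in 11 of the 110 windows (10%), against 1.99% of all 32851 windows in the table. The members holding it were Cyp1a1, Cyp1a2, Cyp2a12, Cyp2a22, Cyp2c38, Cyp2c55, Cyp2c67, Cyp2e1, Fmo9, Gstm1 and Sult2a8. The motif GCGTG, the core of the element bound by the aryl hydrocarbon receptor with its partner Arnt, was searched on both strands of the whole window. It stood in 22 windows (20%), against 32.4% of all windows, and the windows held a median of 2.5 CpG dinucleotides against 7 in all windows. Genes of a cluster share ancestry, so the windows are not independent. The 4 windows printed here belong to members that the results describe at high signal, of which 3 have a TATAAA and Gstp1 has none but holds 20 CpG dinucleotides. They are Cyp1a1 (chr9:57697363-57697662, plus strand), Cyp1a2 (chr9:57683606-57683905, minus strand), Cyp2e1 (chr7:140763569-140763868, plus strand) and Gstp1 (chr19:4037863-4038162, minus strand), each written 5′ to 3′ on the strand of its gene. Capitals mark TATAAA in the searched stretch and GCGTG on either strand, and no marked motif overlaps another.
Cyp1a1: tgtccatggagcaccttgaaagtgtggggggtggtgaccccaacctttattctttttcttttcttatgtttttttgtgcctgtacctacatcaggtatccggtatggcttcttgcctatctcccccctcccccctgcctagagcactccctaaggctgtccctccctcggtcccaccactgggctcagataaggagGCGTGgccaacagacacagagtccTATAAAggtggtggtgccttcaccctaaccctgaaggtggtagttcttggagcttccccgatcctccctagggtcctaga
Cyp1a2: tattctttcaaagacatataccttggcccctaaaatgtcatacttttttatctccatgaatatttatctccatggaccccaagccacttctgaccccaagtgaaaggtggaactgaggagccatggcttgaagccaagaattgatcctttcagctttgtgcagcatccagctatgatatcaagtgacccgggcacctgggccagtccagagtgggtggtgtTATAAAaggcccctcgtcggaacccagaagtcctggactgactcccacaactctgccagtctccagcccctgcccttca
Cyp2e1: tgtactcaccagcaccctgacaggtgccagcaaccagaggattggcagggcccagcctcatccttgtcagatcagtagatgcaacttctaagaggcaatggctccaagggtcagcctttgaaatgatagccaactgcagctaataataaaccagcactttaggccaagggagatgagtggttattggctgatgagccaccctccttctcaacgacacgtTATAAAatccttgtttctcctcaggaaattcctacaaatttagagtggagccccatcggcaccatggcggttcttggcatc
Gstp1: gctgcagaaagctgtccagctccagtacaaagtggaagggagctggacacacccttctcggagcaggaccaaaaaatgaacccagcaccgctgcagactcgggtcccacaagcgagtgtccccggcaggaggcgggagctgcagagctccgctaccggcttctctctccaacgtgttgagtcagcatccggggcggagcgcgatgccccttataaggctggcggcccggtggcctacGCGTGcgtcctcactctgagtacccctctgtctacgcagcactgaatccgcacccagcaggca
In these windows TATAAA begins 30 bases before the start of Cyp1a1, 29 before that of Cyp1a2 and 31 before that of Cyp2e1. GCGTG begins 54 bases before the start of Cyp1a1 and 13 before that of Gstp1.

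No enzyme of these families passed the test between H2be-GF and WT. Of the 113 probe sets, 107 had a mean above 5 over all arrays and were tested with limma together with all other probe sets with a gene symbol above that level. None of the 107 was called at an adjusted p under 0.05, where 20 of all 23194 probe sets tested were called (0.0862%), 0.0474% as higher and 0.0388% as lower in H2be-GF. An unadjusted p under 0.05 was reached by 6 members (5.61%), 4 higher and 2 lower, against 8.43% of all probe sets tested (4.35% higher, 4.07% lower). The arrays of the genotypes did not overlap at 3 members (2.8%), 1 higher and 2 lower, against 2.89% of all (1.29% higher, 1.6% lower). Neither share of members was above that of all probe sets tested. Within the sets of arrays by Xist, each with 2 H2be-GF and 3 WT arrays, it was otherwise, with 8 members at that p (7.48%) against 4.8% of all in the high set and 10 (9.35%) against 4.36% in the low set, none of them called. With the variance modelled by a trend and robustly, 114 probe sets were called over all (0.492%) and again no member.

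The changes were also small. They ran from -0.39 to 0.36 (log2, H2be-GF minus WT) over the members tested, with a median of -0.01 and a standard deviation of 0.12. The median over all probe sets tested was 0.01 and the standard deviation 0.13. Of the tested members, 52 lay above 0 and 55 below. The 6 members not tested were Cyp2a22, Cyp2c38, Cyp2c39, Cyp2d11, Cyp4a10 and Sult3a2, with WT means of 4.21 to 4.84, near the lower end of the values. Of these, Sult3a2 had the largest difference of means, -0.53. Its H2be-GF values were 5.22, 3.94, 4.12 and 3.61 against WT values of 4.48 to 5.00.

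**Figure D1:**
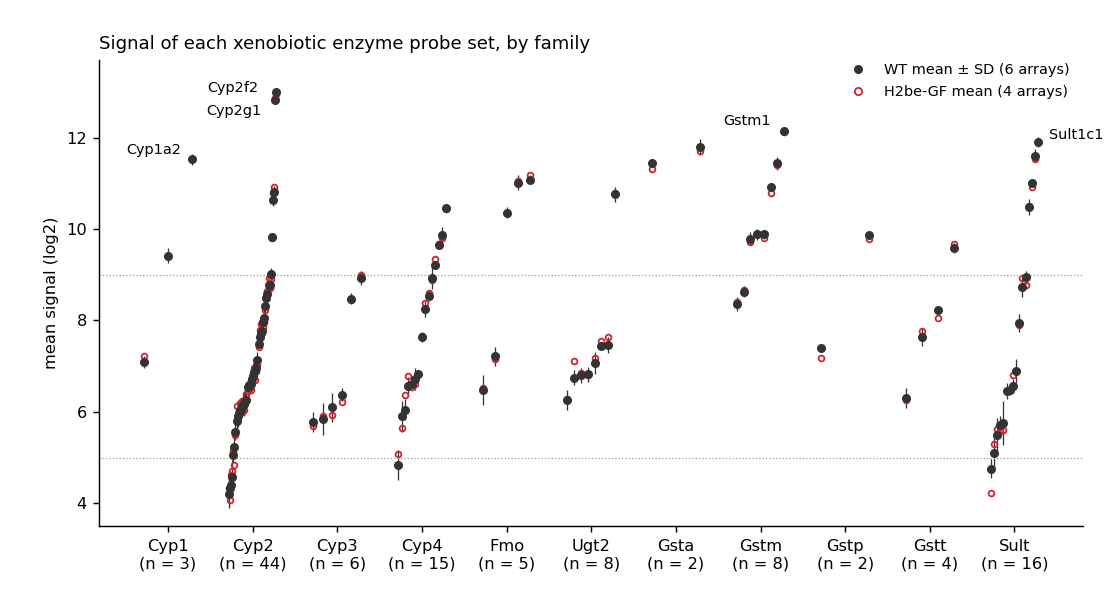
Mean log2 signal of each of the 113 probe sets, grouped by family on the horizontal axis and ordered by WT mean within a family, with filled points for the mean of 6 WT arrays, bars for their SD and open circles for the mean of 4 H2be-GF arrays. Dotted lines stand at 5, above which a mean over all arrays was tested, and at 9. The H2be-GF circles of the tested probe sets lie on or beside the WT points in every family. At Sult3a2, not tested, the H2be-GF mean is 4.22 and the WT mean 4.76. Probe sets differ in brightness for reasons of their probes too, so that heights do not rank amounts.

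Signals of the families ran from WT means of 4.21 to 13.00. They were at or below 5 at 6 members, between 5 and 7 at 46, between 7 and 9 at 31, between 9 and 11 at 18 and above 11 at 12. The 30 members above 9 came from all 3 kinds of conjugating enzyme and from both kinds of oxidising enzyme. Every Gstm probe set lay at 8.36 or above, whereas no Cyp3 member passed 8.93. A probe set's brightness also depends on its probes, so these values place each gene on the scale of the array and do not order the genes by amount.

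**Figure D2:**
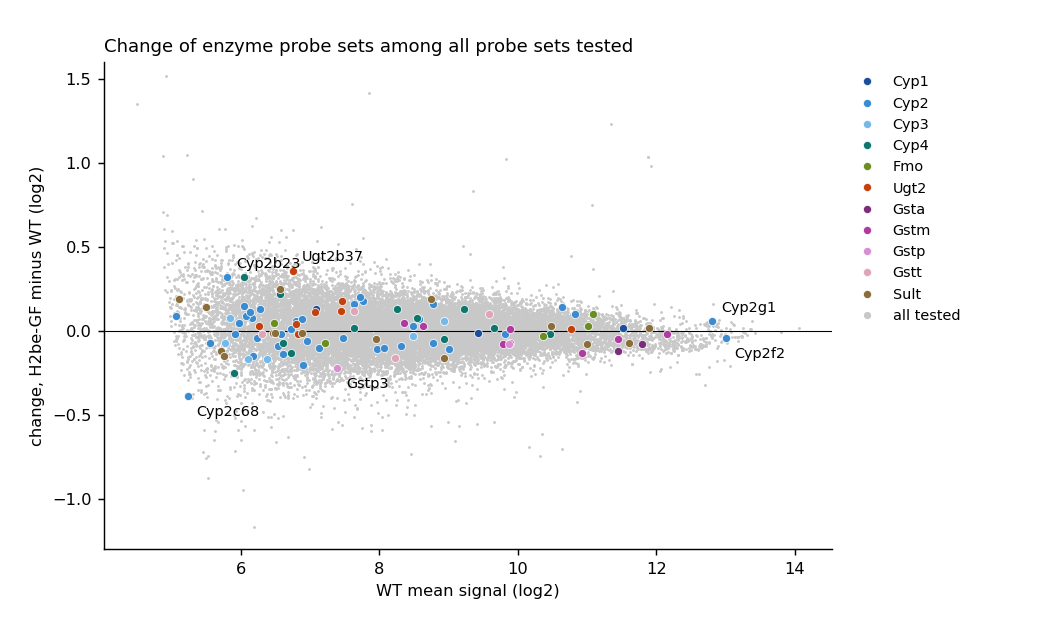
Change in log2 signal (vertical axis, H2be-GF minus WT) against WT mean (horizontal axis) for the 107 members tested, coloured by family, over all 23194 probe sets tested in grey. The members lie between -0.39 and 0.36, inside the grey cloud at their level, and the outermost are the dim probe sets of Ugt2b37 and Cyp2c68.

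Where the signal was high, the arrays set narrow limits. The 30 members with a WT mean above 9 changed by -0.13 to 0.14, and their 95% intervals lay within -0.35 to 0.31 with a median half-width of 0.16. No member of these 30 had an unadjusted p under 0.05 or genotypes that did not overlap. Among all 7914 probe sets above 9, 255 were higher and 342 lower at that p, and 126 lay higher and 223 lower without overlap. The absence among 30 members is not read as a trait of the enzymes. A p that misses the threshold does not show equal levels, and the intervals give the sizes that these arrays leave possible.

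**Figure D3:**
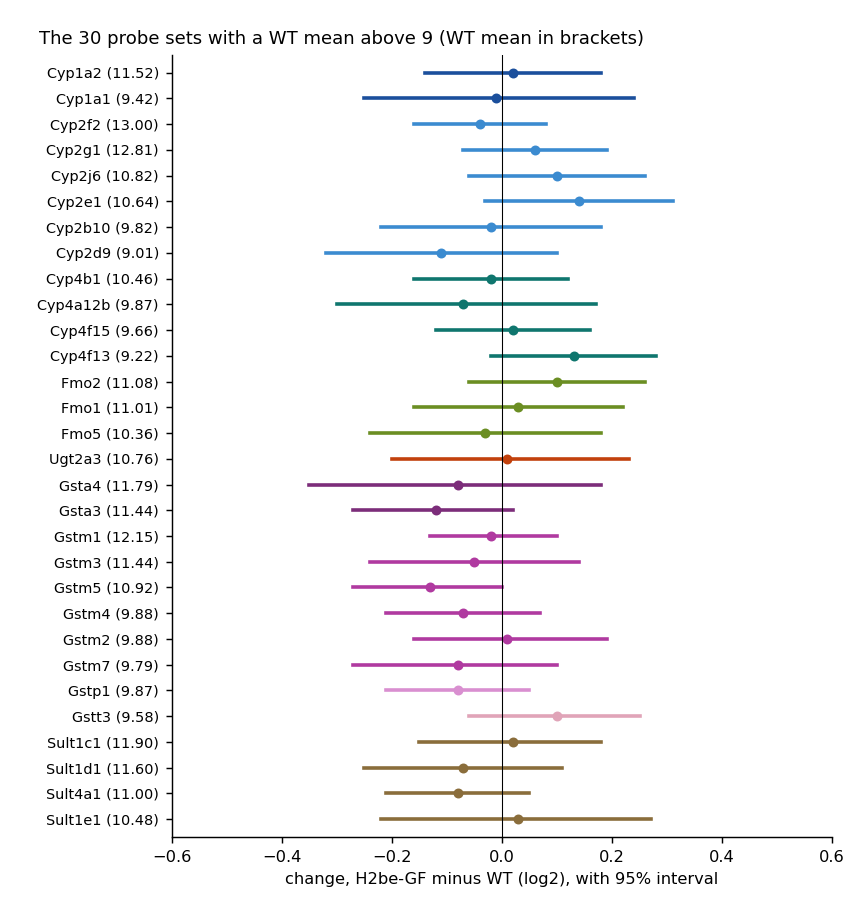
Change in log2 signal (horizontal axis, H2be-GF minus WT) with its 95% interval from limma for the 30 members with a WT mean above 9, whose WT means are in brackets. Every interval includes 0, from the narrow one of Gstm1 (-0.13 to 0.10) to the wide one of Gsta4 (-0.35 to 0.18), and that of Gstm5 (-0.27 to 0.00) ends at 0.

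Among the oxidising enzymes, the P450s best known from the nose had high signals in both genotypes. Cyp2f2, which oxidises naphthalene and related compounds in airway cells, had a WT range of 12.97 to 13.06 with a median of 12.99. Its H2be-GF arrays read 12.94, 12.92, 13.03 and 12.95, so the groups overlapped, and the change was -0.04 (95% interval -0.16 to 0.08). Cyp2g1, a P450 known for its restriction to olfactory mucosa, had WT values of 12.74 to 12.90 with a median of 12.78. The H2be-GF arrays were at 12.82, 12.95, 12.87 and 12.86, within or just above the WT range, for a change of 0.06 (-0.07 to 0.19). A probe set that the annotation assigns jointly to the near-identical Cyp2a4 and Cyp2a5, of which the second hydroxylates coumarin, averaged 12.78 ± 0.09 (SD, n = 6) in WT and 12.78 ± 0.10 (SD, n = 4) in H2be-GF. Its change was -0.00 (-0.15 to 0.15). Of these, Cyp2f2 was the one at which most H2be-GF arrays left the WT range, with H2be-GF 3 alone inside it.

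The other Cyp2 members known from olfactory tissue were spread over more of the scale. Cyp2e1, which oxidises ethanol and small solvents, had H2be-GF values of 10.77, 10.82, 10.68 and 10.87 against WT values of 10.43 to 10.83 with a median of 10.66. H2be-GF 4 was above the WT range and the others lay within it, and the change of 0.14 (-0.03 to 0.31, limma adjusted p = 0.670) was the highest of the 30 bright members. Cyp2j6, of a subfamily that epoxidises fatty acids, changed by 0.10 (-0.06 to 0.26) from a WT mean of 10.82. Cyp2b10, a drug-inducible enzyme in liver, had a WT mean of 9.82 ± 0.08 (SD, n = 6). Its H2be-GF arrays were spread from 9.53 on H2be-GF 1 to 10.03 on H2be-GF 4, lower and higher than every WT array, for a change of -0.02 (-0.22 to 0.18). Cyp2s1 changed by -0.07 (-0.27 to 0.13) from 8.77.

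By subfamily, the Cyp2 changes lay on both sides of 0. Of the 40 Cyp2 members tested, 20 were above and 20 below. In Cyp2c, whose mouse genes form a large cluster on chromosome 19, 7 of 11 tested members were above 0 and the median was 0.06. In Cyp2d, which includes enzymes of plant alkaloid and drug oxidation, 7 of 9 were below 0 and the median was -0.07. Of the Cyp2d changes, the lowest was -0.20 and the highest 0.20, the latter at the pseudogene Cyp2d37-ps, and none was called. Members of a subfamily can share sequence and so probe signal, and a count of directions within one is not a count of independent genes.

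Cyp2c68 had the lowest change of all tested members. Its WT arrays ran from 4.98 to 5.56 with a median of 5.16, and the H2be-GF arrays read 4.93, 4.67, 4.76 and 4.97. Every H2be-GF array was below every WT array, by 0.01 between the nearest pair, and the change was -0.39 (SE 0.12, 95% interval -0.65 to -0.14, 0.761-fold, limma adjusted p = 0.374). The probe set had a mean of 5.07 over all arrays, just above the level of 5 for testing. It passed that level through WT, with a mean of 5.23, whereas the H2be-GF mean was 4.83. A probe set shared by Cyp2c68 and 3 other Cyp2c genes stood at 7.03 in WT and changed by 0.01 (-0.26 to 0.28). Cyp2b23, a little-studied member of the Cyp2b subfamily, lay the other way, with H2be-GF values of 6.21, 6.03, 6.29 and 5.96 against WT values of 5.54 to 6.15 with a median of 5.76. The groups overlapped, with WT 1 and WT 2 among the H2be-GF values, and the change of 0.32 (SE 0.13, limma adjusted p = 0.523) was not called.

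In the Cyp1 family, the enzymes that the aryl hydrocarbon receptor induces and that activate polycyclic hydrocarbons, both genes with a printed promoter gave clear signals. Cyp1a2, which metabolises caffeine, had a WT range of 11.39 to 11.65 with a median of 11.51. The H2be-GF arrays at 11.44, 11.64, 11.50 and 11.58 lay inside that range, and the change was 0.02 (-0.14 to 0.18). Cyp1a1 had WT values of 9.21 to 9.63 with a median of 9.41. Its H2be-GF values of 9.32, 9.36 and 9.26 were in that range and that of H2be-GF 3, 9.74, was above it, with a change of -0.01 (-0.25 to 0.24). Cyp1b1, the third member, changed by 0.13 (-0.13 to 0.39) from 7.09. The receptor gene Ahr itself changed by -0.01 (SE 0.09) from 9.01, and its partner Arnt by 0.04 (SE 0.08) from 9.58.

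Members of Cyp3, the main drug-oxidising P450s of the liver, had modest signals here. Cyp3a13 had a WT mean of 8.93 ± 0.15 (SD, n = 6) and H2be-GF values of 8.92 to 9.05, all within the WT range of 8.76 to 9.16, with a change of 0.06 (-0.12 to 0.24). Cyp3a44 changed by -0.03 (-0.20 to 0.14) from 8.48. The other 4 had WT means of 5.77 to 6.38 and changes of -0.17 to 0.08.

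Cyp4 enzymes hydroxylate fatty acids, and Cyp4b1 also activates airway toxicants. Cyp4b1 had WT values of 10.35 to 10.55 with a median of 10.47, and its H2be-GF arrays at 10.42, 10.36, 10.49 and 10.49 fell within them (change -0.02, -0.16 to 0.12). Cyp4a12b changed by -0.07 (-0.30 to 0.17) from 9.87. All 4 tested Cyp4a members were below 0, with changes of -0.25 to -0.05. Of 9 Cyp4f members, 7 were above 0, the pseudogene Cyp4f41-ps (0.22) among them, and the median was 0.08. No Cyp4a or Cyp4f member was called. Cyp4f18, known from leukocytes as an enzyme of leukotriene B4 and other fatty acids, had H2be-GF values of 6.65, 6.23, 6.16 and 6.43 against WT values of 5.60 to 6.28 with a median of 6.10. Only H2be-GF 1 and 4 were above all WT arrays, and the change was 0.32 (SE 0.13, limma adjusted p = 0.544). WT 6 was low at 5.60, and without it the spread of WT was 6.08 to 6.28.

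The Fmo enzymes oxidise nitrogen and sulfur atoms. Fmo2, the main form in lung, had H2be-GF values of 11.05, 11.20, 11.18 and 11.29 against WT values of 10.95 to 11.20 with a median of 11.07. H2be-GF 4 was above all WT arrays and the others were within their range, with a change of 0.10 (-0.06 to 0.26), or 0.06 without H2be-GF 4. Fmo1 changed by 0.03 (-0.16 to 0.22) from 11.01 and Fmo5 by -0.03 from 10.36. Over the 5 Fmo members the median change was 0.03.

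Of the conjugating enzymes, the Ugt2 family held the highest change of all tested members. Ugt2b37, a glucuronosyltransferase of the Ugt2b cluster on chromosome 5, had WT values of 6.58 to 6.99 with a median of 6.67. The H2be-GF arrays read 7.09, 7.13, 7.21 and 7.01, all above every WT array. The change was 0.36 (SE 0.09, 95% interval 0.17 to 0.56, 1.29-fold) with an unadjusted p of 0.00169, the smallest of the members, and a limma adjusted p of 0.293. It lay between 0.32 and 0.41 under the alternatives that keep both sets of arrays, with adjusted p-values of 0.164 to 1.00 over all alternatives, and was 0.29 within the set high in Xist and 0.44 within the low one.

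Its neighbours in the family gave less. Ugt2b5, on the same chromosome, changed by 0.18 (-0.02 to 0.38, limma adjusted p = 0.647) from 7.46, with H2be-GF values of 7.56, 7.69, 7.62 and 7.68 in the upper part of the WT range of 7.26 to 7.68 or just above it. Of the 7 Ugt2b members, 6 were above 0 with a median of 0.11, and all had WT means of 6.26 to 7.46. The brighter olfactory forms lay nearer to 0. Ugt2a3 changed by 0.01 (-0.20 to 0.23) from 10.76, and a probe set shared by Ugt2a1, the olfactory glucuronosyltransferase of odorants, and Ugt2a2 changed by 0.05 (-0.10 to 0.20) from 12.89 ± 0.10 (SD, n = 6). The probe set shared by 8 Ugt1a genes changed by -0.04 (-0.24 to 0.17) from 10.25. Whether Ugt2b and Ugt2a members differ in their change was not tested.

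**Figure D4:**
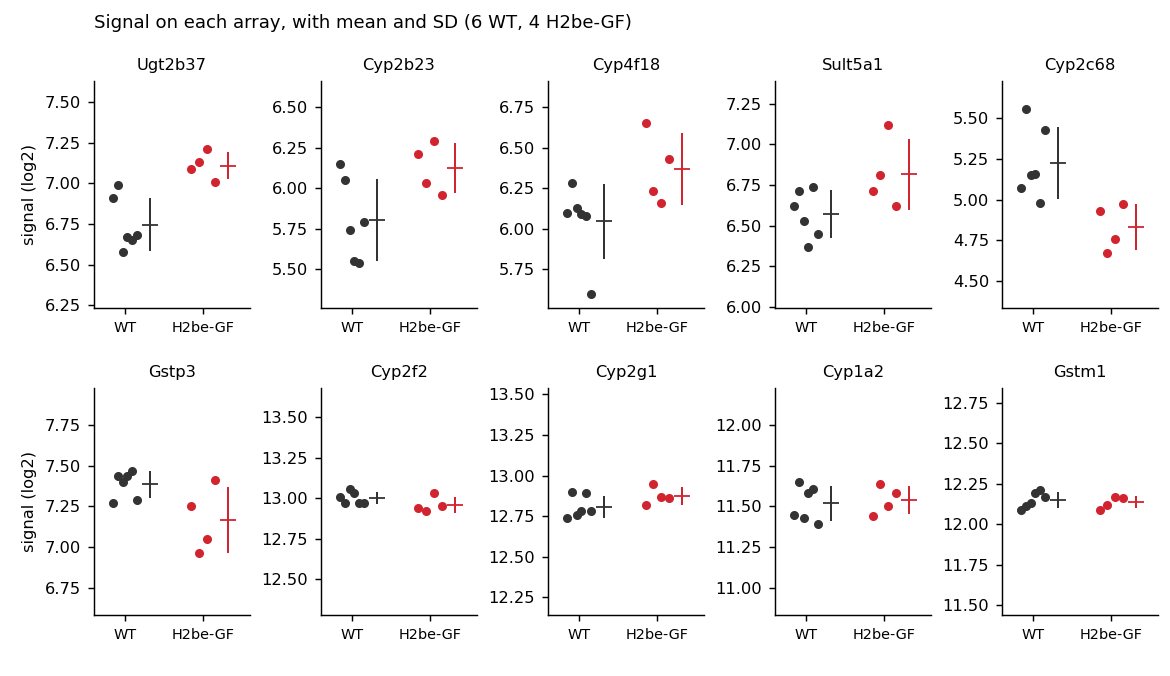
Log2 signal on each array for the 6 members with an unadjusted p under 0.05 and for 4 bright members, with WT in black (n = 6), H2be-GF in red (n = 4), and the mean with its SD beside the points; every panel spans the same range of log2 units from a base of its own. Only Ugt2b37 and Cyp2c68 have no overlap between genotypes, and the points of Cyp2f2, Cyp2g1, Cyp1a2 and Gstm1 lie close together in both.

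The Sult family, which transfers sulfate from PAPS to alcohols and phenols, held 3 members with WT means above 11. Sult1c1, a form known from the olfactory epithelium, had WT values of 11.75 to 12.06 with a median of 11.90. Its H2be-GF values of 11.81, 12.03, 11.84 and 11.98 lay inside that range, with a change of 0.02 (-0.15 to 0.18). Sult1d1, which acts on catechols, changed by -0.07 (-0.25 to 0.11) from 11.60, and Sult1a1, the common phenol sulfotransferase, by -0.05 (-0.29 to 0.19) from 7.95. Sult4a1, the form of brain neurons, changed by -0.08 (-0.21 to 0.05) and Sult1e1, the estrogen sulfotransferase, by 0.03 from 10.48.

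Of the Sult members, only Sult5a1 had an unadjusted p under 0.05. Sult5a1 had H2be-GF values of 6.71, 6.81, 7.12 and 6.62 against WT values of 6.37 to 6.74 with a median of 6.58. The groups overlapped and the change of 0.25 (SE 0.11, limma adjusted p = 0.571) was not called, with H2be-GF 2 and 3 above all WT arrays. It was 0.14 without H2be-GF 3 and also 0.14 within the set high in Xist. Sult6b1, chosen after its values were seen as the last member without overlap, had H2be-GF values of 8.76, 8.80, 8.77 and 8.78 against WT values of 8.81 to 9.14 with a median of 8.86. The nearest arrays were 0.01 apart, and the change was -0.16 (-0.34 to 0.01) with an unadjusted p of 0.0668. Sult1b1, of phenols and thyroid hormones, and Sult3a1, also chosen after their values were seen, each changed by 0.19 with overlapping groups. Over the 15 members tested, 6 were above 0 and 9 below.

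Glutathione S-transferases couple glutathione to electrophiles, and 10 of their 16 probe sets had a WT mean above 9. Gstm1 had WT values of 12.09 to 12.21 with a median of 12.15. Its H2be-GF arrays at 12.09, 12.12, 12.17 and 12.16 lay within them, for a change of -0.02 (-0.13 to 0.10). The probe sets of Gstm3 stood at 11.44 and 8.63 in WT and changed by -0.05 and 0.03. Gstm5 changed by -0.13 (-0.27 to 0.00) from 10.92, the lowest change of the 30 bright members.

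The alpha and pi classes lay below 0 at each member measured alone. Gsta3 had WT values of 11.40 to 11.56 with a median of 11.42 and H2be-GF values of 11.22, 11.27, 11.48 and 11.30. The H2be-GF arrays were below all WT arrays apart from H2be-GF 3, and the change was -0.12 (-0.27 to 0.02, limma adjusted p = 0.669). Gsta4, which removes the lipid peroxidation product hydroxynonenal, varied more, with WT values of 11.45 to 11.93 and H2be-GF values of 11.43, 11.68, 11.70 and 12.01 (change -0.08, -0.35 to 0.18). The lowest and highest arrays were H2be-GF 1 and H2be-GF 4, so that the H2be-GF values enclosed those of WT, and without H2be-GF 1 the change was 0.01. Over 4 probe sets shared by Gsta1, Gsta2 and 2 predicted genes, the changes were 0.05 to 0.14, above 0.

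Gstp1, the common pi-class form, had H2be-GF values of 9.79, 9.83, 9.76 and 9.79 against a WT range of 9.79 to 9.98, a change of -0.08 (-0.21 to 0.05). Gstp3, its chromosome 19 neighbour, had H2be-GF values of 7.25, 6.96, 7.05 and 7.41 against WT values of 7.27 to 7.47 with a median of 7.42. All but H2be-GF 4 were below every WT array, and the change was -0.22 (SE 0.09, 95% interval -0.42 to -0.02, limma adjusted p = 0.546). Of the theta class, Gstt3 changed by 0.10 (-0.06 to 0.25) from 9.58. Gstt1 changed by -0.16 (-0.38 to 0.07) from 8.22, where H2be-GF 1 was lowest at 7.71, and by -0.04 without that array. Over the 16 Gst probe sets, 11 were below 0 and 5 above with a median of -0.06, and none was called.

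Of the probe sets shared by several genes of these families, none was called. There were 17, with WT means of 5.93 to 12.89 and changes of -0.21 to 0.19. Each direction had 1 of the 17 with an unadjusted p under 0.05, against 4.35% higher and 4.07% lower of all probe sets tested. The lowest change belonged to one shared by Sult2a1 and Sult2a2 and the highest to one shared by Cyp4v3 and a gene outside the families.

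The rest of the pathway was measured through 58 of 60 genes listed from outside the families, and none was called. Unadjusted p-values under 0.05 were found for 1 higher (1.72%) and 5 lower genes (8.62%), against 4.35% and 4.07% of all probe sets tested, and the median change was -0.01. By role, the count was 4 lower of 24 (16.7%) for electron partners and other enzymes of oxidation, reduction or hydrolysis. Those 4 were Cbr3, Aldh3a1, Adh5 and Adh7. The electron partners Cyb5a, Cyb5b and Cyb5r3 changed by 0.00, 0.07 and 0.03, and Por, also listed, had no probe set of its own. The counts were 1 lower of 9 for other transferases, none of 8 for cofactor supply, none of 10 for regulators and 1 higher of 7 for transporters. The enzyme that makes UDP-glucuronic acid, Ugdh, changed by -0.01 (SE 0.06) from 12.31, and Papss2, which makes the sulfate donor PAPS, by -0.14 (SE 0.08) from 11.12. Gclc, the catalytic subunit of the first step of glutathione synthesis, changed by 0.06 (SE 0.07). Nfe2l2, the activator of many of these genes under oxidative stress, changed by -0.07 (SE 0.06) from 10.87.

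A few genes of these lists lay farther out, and those with the smallest p are given here. Cbr3, a carbonyl reductase, had H2be-GF values of 7.92, 8.04, 8.08 and 8.02 against WT values of 8.14 to 8.35 with a median of 8.30. The genotypes did not overlap, and the change was -0.25 (SE 0.07, limma adjusted p = 0.334). Aldh3a1, an aldehyde dehydrogenase known from the cornea, had H2be-GF values of 9.85, 9.88, 10.14 and 10.08 against 10.12 to 10.40 with a median of 10.21. H2be-GF 3 overlapped with WT, and the change of -0.26 (SE 0.08) had a limma adjusted p of 0.411, which was 0.0202 with a trended and robust variance and ran from 0.0202 to 1.00 over the alternatives. That change was -0.39 within the set high in Xist and -0.13 within the low one. Abcb1a, an efflux pump for drugs, read 8.92, 8.90, 8.95 and 8.92 in H2be-GF, above all WT arrays (8.51 to 8.84, median 8.77), for a change of 0.20 (SE 0.07, limma adjusted p = 0.460). Adh5 also lay lower without overlap (10.85 to 11.02 against 11.04 to 11.16, change -0.16). Besides Cbr3, Abcb1a and Adh5, no gene of these lists was without overlap. Of all probe sets tested, 1.29% lay higher and 1.6% lower without overlap.

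Markers of the cells that make the enzymes did not pass the test either. For 10 supporting cell markers the mean level was 10.76 to 10.85 on H2be-GF arrays and 10.78 to 10.88 on WT arrays. None was called, and the median change was -0.00. At an unadjusted p under 0.05, 1 was lower (10%, Hes1), against 4.07% of all probe sets tested. Cbr2 is on this list and also on that of the pathway. Hes1, a Notch target of supporting cells, changed by -0.19 (SE 0.07, limma adjusted p = 0.482), Ermn by 0.09 (SE 0.08) and the keratin Krt18 by -0.05 (SE 0.07). For 6 Bowman's gland markers the mean was 10.32 to 10.46 in H2be-GF and 10.42 to 10.48 in WT, with none called and changes of -0.07 to 0.02.

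The tissue can hold other cells too. For 8 mature neuron markers the mean was 11.84 to 11.87 in H2be-GF and 11.87 to 11.96 in WT. Of these, 1 was lower (12.5%) at an unadjusted p under 0.05, and the changes ran from -0.13 to 0.08. Omp (12.75 to 12.81 against 12.83 to 12.96) and Cnga2 (12.33 to 12.41 against 12.44 to 12.54) lay below every WT array. The groups overlapped at the other markers, and 1.6% of all probe sets tested lay lower without overlap. For 6 markers of respiratory ciliated cells the mean was 9.52 to 9.62 in H2be-GF and 9.62 to 9.73 in WT. Of those, 1 was higher (16.7%) and 4 lower (66.7%) at this p, above the 4.35% and 4.07% of all probe sets tested. Markers of immature neurons (10.50 to 10.61 against 10.40 to 10.63), horizontal basal cells (9.23 to 9.32 against 9.17 to 9.52) and olfactory ensheathing glia (9.80 to 9.89 against 9.79 to 9.89) overlapped, with none at that p. So did those of skeletal muscle (8.30 to 8.53 against 8.38 to 8.67), cartilage and bone (9.65 to 10.05 against 9.36 to 10.22) and hepatocytes (7.49 to 7.82 against 7.21 to 7.81), again with none. Immune markers lay at 9.12 to 9.40 against 9.12 to 9.21 with 1 of 4 higher, and of the blood markers only Alas2 had a probe set of its own, at 8.93 to 9.12 against 9.10 to 9.79, lower at that p. No marker of any list was called and none had a value at 0. The part of these cells in the enzyme values was not tested.

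Arrays of one genotype also differed among themselves. The median deviation of the 30 bright members from their WT means was -0.08 on H2be-GF 1 and -0.06 on WT 1, and between -0.02 and 0.05 on all other arrays. The same 2 arrays stood at 0.04 and 0.02 over all probe sets tested. Thus the low arrays were found in both genotypes. WT standard deviations of the bright members had a median of 0.11, against 0.10 for all probe sets above 9.

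**Figure D5:**
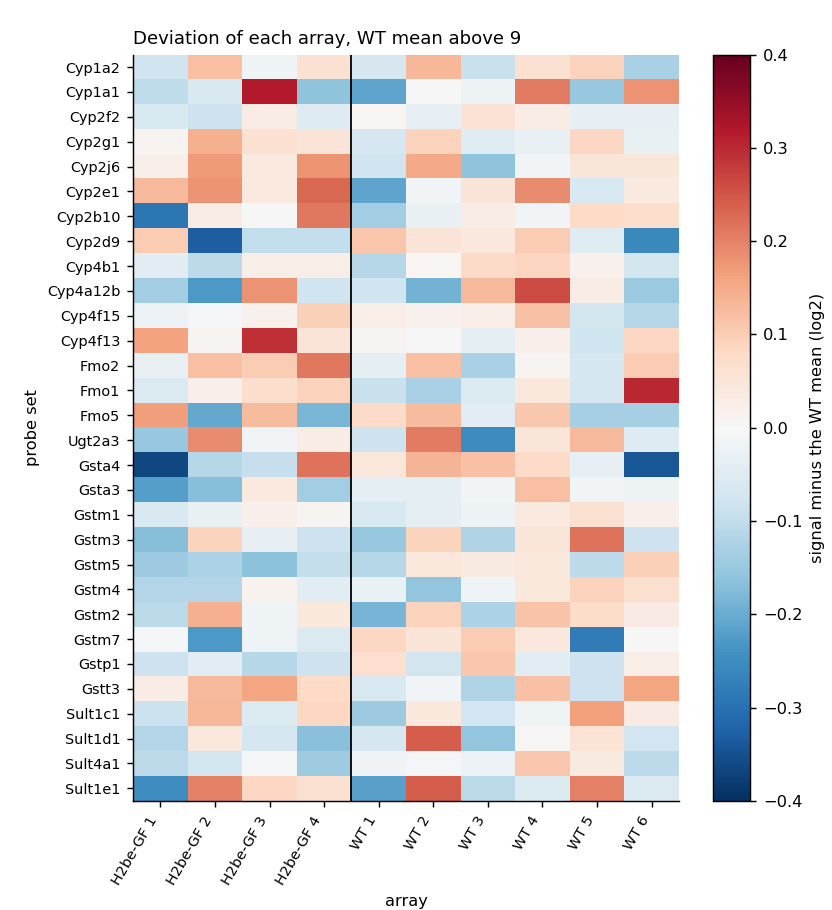
Deviation of each array (columns, H2be-GF left and WT right of the line) from the WT mean in log2 units (colour) for the 30 members with a WT mean above 9 (rows, by family). Each row is centred on its WT mean, so its WT cells fall on both sides of 0 whatever the H2be-GF arrays do. H2be-GF 1 and WT 1 have more blue cells than the other arrays, with medians of -0.08 and -0.06.

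Many of these enzymes are known to differ by sex in the liver, and the change was therefore compared between the sets of arrays high and low in Xist. No member was called for an interaction of genotype with set, and no probe set of all was (0%). Unadjusted p-values under 0.05 were found for 7 members (6.54%), against 2.92% of all probe sets tested, with the smallest at Cyp4f14. Cyp4f14, chosen after its values were seen, changed by -0.31 in the arrays high in Xist and by 0.27 in the others, an interaction of -0.59 with an unadjusted p of 0.00241 and a limma adjusted p of 1.00. Gsta4 changed by -0.33 and 0.16. Each set held 2 H2be-GF and 3 WT arrays, so each of these changes rests on few arrays.

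Between the sets themselves, regardless of genotype, no member was called, where 99 probe sets were called over all (0.427%). Unadjusted p-values under 0.05 were found for 2 members (1.87%), against 5.24% of all, namely Cyp2d10, lower by 0.23 in the arrays high in Xist, and Cyp2c67, higher by 0.28. The differences of the members lay between -0.38 and 0.28. Cyp4a12a and Cyp2d9, known as male forms there, differed by -0.13 and 0.07 (high minus low), and Cyp2b9 and Cyp3a44, known as female forms, by -0.02 and -0.03, with limma adjusted p-values of 0.992 to 0.994. Cyp4a12b and Cyp2b13, of the same subfamilies, differed by -0.15 and 0.19 (limma adjusted p = 0.974 each). The Cyp3a44 probe set stood at 8.48 in WT, and those that Cyp3a44 shares with other Cyp3a genes at 6.08 and 5.93. The genes of this comparison were chosen after their values were seen.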

How the data were processed

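Whole MOE RNA was hybridised to 10 arrays, grouped by GEO's labels into 4 H2be-GF and 6 WT. Per the study's methods, the authors checked the scans with arrayQualityMetrics, used Affymetrix Expression Console for IterPLIER summaries per probe set after sketch-quantile normalization, and deposited log2 values. For these tools the version, and for the probes the genome build, is not given in the sources used here. As deposited, the log2 values ran from 0 to 14.2, with 95 to 157 values at 0 per array and none among the members. Quantile normalization hides a change shared by most genes, and dim probe sets are less certain. The labels number each array as a replicate, and the study describes pooled animals for each sample. A p-value here therefore describes how pools vary, which may in part be technical.

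Of the probe sets, 21789 had 1 gene symbol in the platform annotation, 1621 had several and 12146 none. Entrez IDs led from these to current symbols in a RefSeq table (GRCm38.p6), which matched 21698 of them and all 113 members. The table also gave the chromosomes. No protein sequences were used here.

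The test was that of limma 3.58.1 (R 4.3.3), with lmFit and eBayes, two-sided and without covariates, over 23194 probe sets that had a gene symbol and averaged above 5, with Benjamini-Hochberg adjustment over all of them at 0.05. Intervals are at 95%. The interaction with the Xist sets (Xist above or below 8) used all 10 arrays. List levels per array are means of log2 values. On simulated data with 23194 probe sets, 22% of changes of 0.3 (log2), 58% of 0.6, 88% of 1 and 100% of 1.5 were called. The simulated noise was normal and independent between probe sets, and the large changes placed in it ease the adjusted threshold. These shares can therefore overstate what the test on the real arrays would call. Precision is limited by the small number of arrays. The alternatives were other normalizations, a constant of 16 added, another variance model, weights per array, a block for the replicate number, Xist as a covariate, filters on the mean, the Xist sets, and leaving out each array. Plots were drawn with matplotlib 3.10.9.

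Members, lists and rules were chosen with earlier results of these data known. Named are members called, up to 8 each way with the smallest unadjusted p under 0.05, the 2 with the highest WT mean per family, those known from olfactory tissue, and of the pathway list and of the supporting cell markers up to 3 with the smallest p. Other genes given by value were chosen after their values were seen, as examples.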

Additional observations from a re-analysis of the deposited data

Results flagged for a closer look

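Single arrays stood apart from the rest of their group at 3 of the 76 groups of arrays examined, by Dixon's criterion, which flags about 1 group in 20 by chance. All 3 were among WT arrays. For Cyp4f18, WT 6 was lowest at 5.60, with the next array at 6.08. For Gsta4, WT 6 was again lowest at 11.45, with the next at 11.76. For Gsta3, WT 4 was highest at 11.56, with the next at 11.43.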

How the results depend on the processing

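No enzyme probe set was called under any of the 21 alternatives, and no supporting cell marker was. The lowest adjusted p of a member was 0.164, under a second quantile normalization. Of the pathway genes, 1 (Aldh3a1) was called with a trended and robust variance and none otherwise. The count of members at an unadjusted p under 0.05 was 6, and it was 10 with array weights (9.35% against 9.56% of all), 2 of 61 with a mean above 7, 10 within the arrays low in Xist (9.35% against 4.36%), 8 within those high in it (7.48% against 4.8%), and 4 to 8 when each array was left out. The share of members was above that of all probe sets only within the 2 Xist sets. Without H2be-GF replicate 3 it was 4. Of the 38 named genes, 22 kept their sign under every alternative run, and the other 16, with main changes of -0.16 to 0.09, changed sign under at least 1. Values moved by 1 SD or more, pooled over both genotypes, only within the Xist sets, for 5 genes: Cyp2f2 (-0.09 in the high set and 0.00 in the low set), Gsta4 (-0.33 and 0.16), Gstt1 (-0.34 and 0.03), Aldh3a1 (-0.39 and -0.13) and Ermn (0.22 and -0.05). Without H2be-GF replicate 1, Cyp2b10 moved from -0.02 to 0.08 and Gstt1 from -0.16 to -0.04, more than their WT SDs of 0.08 and 0.10. The cause was not tested.

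With the replicate number as a block, no member was called, 5 had an unadjusted p under 0.05, and 5 probe sets were called over all instead of 20. The change of Ugt2b37 was then 0.32. Between arrays of the same number, deviations from the genotype means correlated at 0.53, 0.219, -0.423 and 0.261, and WT 5 and WT 6 have no partner. The negative value, of number 3, is from arrays of different Xist sets. The other values are from arrays of the same set, so the correlations cannot tell a pairing by number from the Xist sets. H2be-GF 1 alone correlated best with the WT array of its own number.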
